A study of Mus musculus with 4 samples.

Results

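The genes described here encode the proteins of the cytosolic ribosome. They were taken as every gene whose platform symbol is Rpl or Rps with a number, together with Rplp0, Rplp2 and Rpsa, without the Rps6k kinases, pseudogenes and mitochondrial Mrp genes. Probe sets, the groups of short oligonucleotides by which the array reads a transcript, counted when the platform gave them a single symbol. This gave 48 genes of 12393 tested, 26 of the large and 22 of the small ribosomal subunit, measured by 100 of 22690 probe sets. Each gene was represented by its probe set with the highest mean log2 signal over the 4 arrays.

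RNA came from back skin of mice at postnatal day 49 and was hybridised to Affymetrix arrays, 2 per group. All 4 samples carried the same transgene, K14-GFP-actin, a GFP-actin fusion driven by the keratin 14 promoter, whose activity lies in the basal layer of the epidermis and the outer root sheath. The bulge basal group held living GFP cells sorted for high α6 integrin and high CD34, the surface pair that marks hair follicle stem cells of the bulge. The total epidermis group held all living GFP cells, so bulge cells were not removed from it. The labels name the replicates 1 and 2 in each group and do not say whether they came from separate mice. The p-values therefore reflect the spread among these 4 samples alone, and that spread may be technical. Their cell type field is identical for all 4 samples, and the groups follow the titles. Sex and strain are not given in the sources used here.

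The sort was checked against its markers. Cd34 had signals of 15697 and 14034 in bulge basal cells, against 844 and 1144 in total epidermis. Itga6, which encodes α6 integrin, was lower on both bulge arrays, with 3312 and 1693 in bulge basal cells, against 5642 and 3491 in total epidermis. Its log2 difference was -0.91 ± 0.52 (SE, limma adjusted p = 0.686). Krt14, the keratin whose promoter drives the transgene, had signals of 17045 and 16253 in bulge basal cells, against 16820 and 25125 in total epidermis. Of 12 leukocyte markers, 11 were above background on at least 1 array, and for 11 both bulge arrays were lower than either total array. Their summed signal was 1195 and 1699 on the bulge arrays, against 12445 and 14556 on the total arrays. Red blood cell markers (0 of 2) and muscle markers (0 of 3) were not above background on any array, and fibroblast and endothelial markers were so for 1 of 6 and 1 of 3. All 3 melanocyte markers measured (Dct, Tyrp1 and Pmel) were above background on at least 1 array and lower on both bulge arrays. Their summed signal was 681 and 559 on the bulge arrays, against 1450 and 1362 on the total arrays. Of 5 suprabasal keratinocyte markers, 2 were lower on both bulge arrays than on either total array, and 0 were higher. The lower 2 were Krt1 and Ivl, and Ivl was not above background on any array. Krt1 had log2 signals of 9.45 and 10.13 in bulge basal cells, against 13.03 and 13.17 in total epidermis. Signals are in the arbitrary linear units of the deposited table, and each array's 2% trimmed mean lay between 499.7 and 499.8. The background level, 150.0 in signal or 7.23 in log2 signal, is the 95th percentile of 67 olfactory, vomeronasal and taste receptor genes.

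A ribosome joins a small subunit, which reads the mRNA, to a large subunit, which forms the peptide bond. Each cytosolic ribosomal protein is usually present once per subunit, apart from the stalk proteins, and their genes are among the most strongly expressed of a cell. Their mRNAs typically begin with a run of pyrimidines, the 5′ terminal oligopyrimidine (TOP) motif, through which mTOR signalling controls their translation. Many have processed pseudogenes, so that a probe can often match more than a single locus. Bulge stem cells rest during telogen, and resting cells are generally thought to make fewer ribosomes than dividing cells.

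The TOP form was found at a minority of the annotated starts read for these genes. Only the start listed first for each gene was read, and other annotated starts were not. RefSeq promoter sequences of 300 bases (build GRCm38.p6, 250 before and 50 from the start) were found for 42 of the 48 genes. A C at the start followed by at least 4 pyrimidines occurred in 8 of the 42 genes (19.0%) and in 673 of all 27025 genes in that table (2.49%). An annotated start a few bases off hides the form, so absence here says only that these letters are not at that position. The 8 starts are shown because they are those with the TOP form, with 40 bases before and 20 from the start and the pyrimidine run from the start in capitals.
Rps18, chr17:33955646-33955705, minus strand: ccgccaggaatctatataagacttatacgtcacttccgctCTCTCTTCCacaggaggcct
Rpl38, chr11:114668540-114668599, plus strand: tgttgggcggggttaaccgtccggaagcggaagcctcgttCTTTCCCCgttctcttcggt
Rps10, chr17:27635225-27635284, minus strand: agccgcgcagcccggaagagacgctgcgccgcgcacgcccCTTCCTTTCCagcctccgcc
Rplp2, chr7:141447611-141447670, plus strand: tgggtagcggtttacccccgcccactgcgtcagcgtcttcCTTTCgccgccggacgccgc
Rpl35, chr2:39005112-39005171, minus strand: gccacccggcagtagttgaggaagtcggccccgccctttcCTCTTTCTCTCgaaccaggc
Rps6, chr4:86857348-86857407, minus strand: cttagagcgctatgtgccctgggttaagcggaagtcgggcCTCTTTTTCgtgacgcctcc
Rpl14, chr9:120571477-120571536, plus strand: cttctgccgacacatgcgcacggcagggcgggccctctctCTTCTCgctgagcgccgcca
Rps27, chr3:90213629-90213688, minus strand: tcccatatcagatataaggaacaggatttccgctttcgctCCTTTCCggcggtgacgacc
Genes of both subunits are among the 8.

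The letters CCGGAAG, a core to which ETS factors can bind, occurred on either strand in 21 of the 42 windows (50%) and in 2465 of all windows (9.12%). CTCTTT occurred on either strand in 14 of the 42 (33.3%) and in 6185 of all windows (22.9%). This second string can lie within a pyrimidine run, as at the Rps6 start above, and the first cannot. These motifs were chosen with the sequences in view, and a match is a description, not a binding site.

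The ribosomal protein genes were bright. Of the 48, 45 were above background on all 4 arrays, and 3 paralogues (Rpl39l, Rpl3l and Rps4l) were below it on all 4. In mean signal, 35 lay in the top 10% of all genes and 27 among the brightest 1%, which holds 124 genes. The brightest was Rps7, a small subunit protein needed for processing of its rRNA, with signals of 19946 and 22883 in bulge basal cells, against 20917 and 26249 in total epidermis. Rps4x, the X-linked form of Rps4, had 18898 and 22119 in bulge basal cells, against 19013 and 25418 in total epidermis. Rps3, which lines the mRNA entry channel, had 17267 and 26311 in bulge basal cells, against 17692 and 24974 in total epidermis. In each of these 3 genes both replicate 1 arrays lay below both replicate 2 arrays, whichever the cell group.

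**Figure D1:**
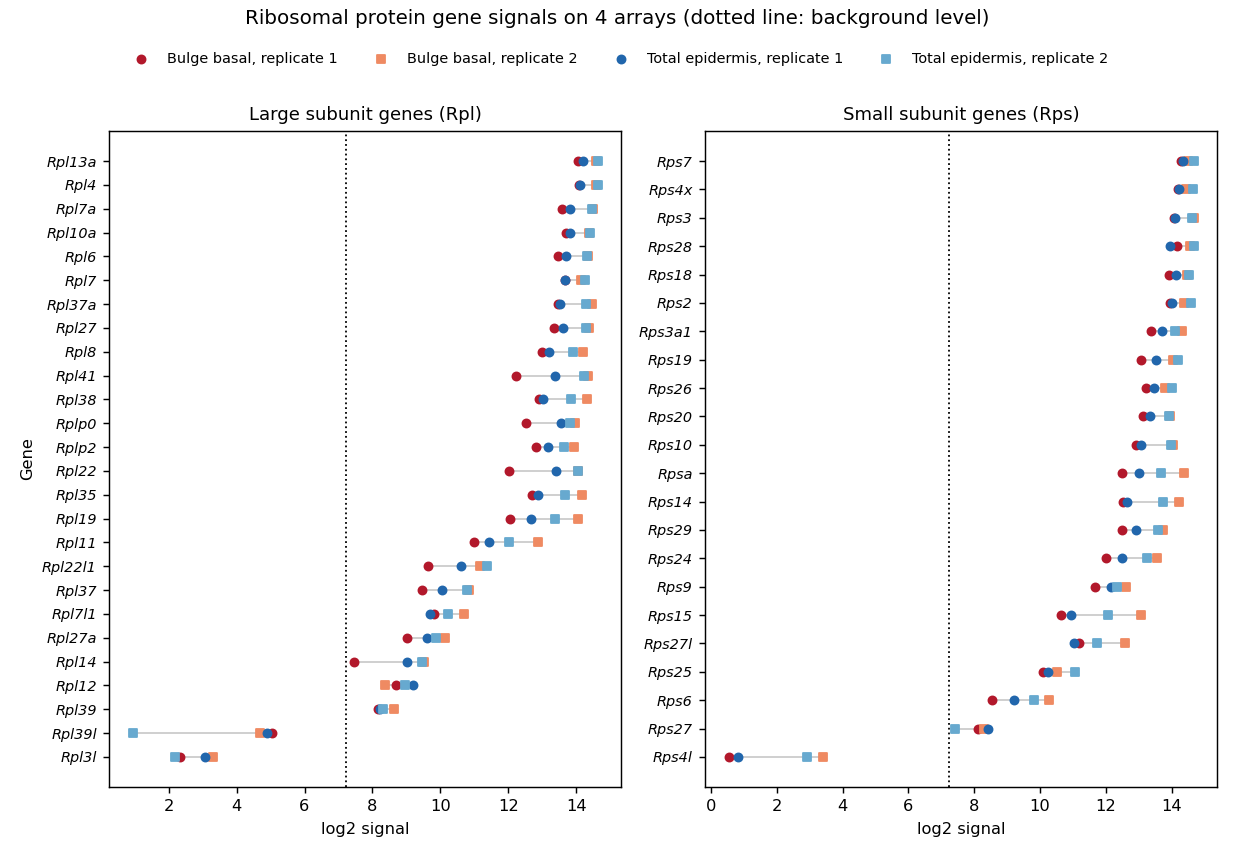
Log2 signal (x axis) of each ribosomal protein gene (rows) on the 4 arrays, with large subunit genes on the left and small subunit genes on the right. Circles are replicate 1, squares replicate 2, reds bulge basal and blues total epidermis. The dotted line is the background level, and the 3 genes below it are Rpl39l, Rpl3l and Rps4l. In most rows the circles lie left of the squares, in both groups.

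The first comparison asks whether bulge basal cells differ from total epidermis in these genes. No ribosomal protein gene was called different between bulge basal cells and total epidermis. The median log2 difference, bulge basal minus total epidermis, was -0.07 over the 48 genes (quartiles -0.14 and 0.10), and -0.02 over all genes (quartiles -0.41 and 0.38). Of the 48, 18 had a positive difference and 30 a negative one, and 41 (85.4%) were under 0.5 in size, as were 58.9% of all genes. In sorted bulk samples fewer cells of a type and less RNA per cell cannot be told apart.

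The test was limma on group alone, and p-values were adjusted by Benjamini-Hochberg across the 12393 genes, with calls at an adjusted p under 0.05. It called 0 of the 48 genes and 0 of all genes (0%), and at an unadjusted p under 0.05 it held 0 of the 48 against 1297 of all genes (10.5%). A limma fit with an intensity trend called 0 of the 48 and 134 of all genes (1.08%). The smallest adjusted p among the 48 was 0.748 in the group-only fit, for the undetected paralogue Rpl39l, and 0.782 among the 45 genes above background. In the trended fit it was 0.723 among the 48. The 95% interval of a gene's difference reached a median of 1.33 in log2 to either side over the 48, against 1.15 over all genes, and no interval of the 48 lay within -1 and 1, so a difference of 2-fold was not bounded for any of them.

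Taken as a class, the 2 bulge arrays lay on either side of the 2 total arrays. The median log2 signal over the 48 genes was 12.51 and 14.05 on the bulge arrays, against 13.04 and 13.79 on the total arrays. That is 13.28 ± 1.09 in bulge basal cells and 13.41 ± 0.53 in total epidermis (SD, n = 2 each). An exact two-sided permutation test of these 4 values gave p = 1.0, and with 2 arrays against 2 it cannot go below 0.333. Without bulge replicate 1 the median difference over the genes was 0.39, and without bulge replicate 2 it was -0.56, so its sign rests on which bulge array is kept. The summed leukocyte and melanocyte marker signals and the Krt1 signals given above were lower in bulge basal cells. The part of these cell types in this comparison was not tested.

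Separation of the groups was rare. Both bulge arrays lay above both total arrays for 0 of the 48 genes, against 18% of all genes, and below both for 1 of the 48, against 20.5% of all genes. That gene was Rpl12, a large subunit protein at the base of the stalk. It had signals of 418 and 327 in bulge basal cells, against 582 and 494 in total epidermis. Its log2 difference was -0.54 ± 0.39 (SE, limma adjusted p = 0.782), with a 95% interval of -1.52 to 0.45. Rpl12 is dim for this class. In 2 brighter probe sets that carry its symbol beside those of predicted (Gm) genes, the groups overlapped. The first had log2 signals of 11.27 and 12.83 in bulge basal cells, against 11.94 and 12.74 in total epidermis. The second had 12.81 and 14.34 in bulge basal cells, against 13.26 and 14.33 in total epidermis. Both had another replicate pattern than the Rpl12 probe set tested, as given below. With the mean of all probe sets of a gene in place of the brightest, 7 genes had both bulge arrays lower. That mean took in probe sets below background. With quantile normalization 5 genes had both bulge arrays lower and 1 had both higher. The shares of all genes under these settings were not counted, so these counts cannot be read against the shares above.

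**Figure D2:**
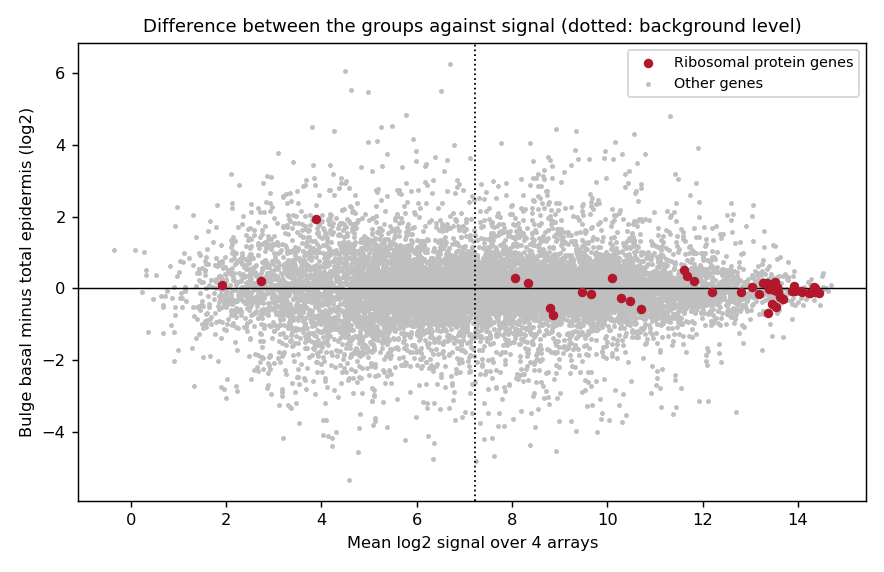
Log2 difference, bulge basal minus total epidermis (y axis), against mean log2 signal over the 4 arrays (x axis), with 1 point per gene. Red points are the 48 ribosomal protein genes, grey points the other genes, and the dotted line is the background level. The red points above background lie between -0.75 and 0.50.

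Among the large subunit genes, the most negative differences were those of Rpl14, Rpl22, Rpl22l1, Rpl12, Rpl41 and Rplp0. Rpl14 had signals of 176 and 732 in bulge basal cells, against 520 and 704 in total epidermis, a log2 difference of -0.75 ± 0.75 (SE, limma adjusted p = 0.872). That probe set is dim for this class. In 5 brighter probe sets that carry the Rpl14 symbol beside that of a pseudogene, the differences were 0.23, 0.51, 0.38, 0.20 and -0.06. Rpl22, an RNA-binding protein of the large subunit whose loss in mice impairs T cell development, had 4147 and 16971 in bulge basal cells, against 10898 and 16939 in total epidermis, a difference of -0.70 ± 0.75. In Rpl14 and Rpl22 bulge replicate 1 alone was low, while bulge replicate 2 was the highest of the 4 arrays. Rpl22l1, the paralogue of Rpl22, had 800 and 2320 in bulge basal cells, against 1570 and 2642 in total epidermis, a difference of -0.58 ± 0.64. Rpl41, which encodes a very short basic peptide, had 4780 and 20616 in bulge basal cells, against 10509 and 19256 in total epidermis. Bulge replicate 1 was again the lowest array for both, so that the groups overlapped in every one of these genes other than Rpl12.

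The stalk of the large subunit recruits the elongation factors, and 2 of its 3 genes were measured. Rplp0, its base, had signals of 5829 and 16117 in bulge basal cells, against 11947 and 14485 in total epidermis, a log2 difference of -0.44 ± 0.59 (SE). Rplp2 had 7244 and 15645 in bulge basal cells, against 9270 and 12678 in total epidermis, a difference of -0.03 ± 0.52. In both genes the bulge arrays were the lowest and the highest of the 4. Rpl11, which with Rpl5 and 5S rRNA forms the particle that binds the p53 regulator Mdm2, had 2026 and 7561 in bulge basal cells, against 2745 and 4176 in total epidermis. Its difference was 0.21 ± 0.72, with the bulge arrays again on either side of the total arrays. A dimmer probe set that carries the Rpl11 symbol beside that of a predicted (Gm) gene had a difference of -0.31. In that probe set replicate 2 minus replicate 1 was -1.34 in bulge basal cells and -0.77 in total epidermis. Of the listed proteins around the peptide exit tunnel, 4 of 8 were measured (Rpl4, Rpl19, Rpl35 and Rpl39), with a median difference of 0.10 and 0 called.

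Among the small subunit genes the most positive differences were those of Rps27l, Rps15 and Rps27. Rps27l, a paralogue of Rps27 that p53 can induce, had signals of 2309 and 6092 in bulge basal cells, against 2075 and 3370 in total epidermis. Its log2 difference was 0.50 ± 0.61 (SE, limma adjusted p = 0.907), with a 95% interval of -1.03 to 2.04, and bulge replicate 1 lay between the total arrays. Rps15, a protein of the small subunit head, had 1606 and 8540 in bulge basal cells, against 1947 and 4312 in total epidermis, a difference of 0.35 ± 0.90. Rps27 had 278 and 316 in bulge basal cells, against 342 and 172 in total epidermis, a difference of 0.29 ± 0.48. Neither of these 2 genes separated the groups.

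Rps6 is the small subunit protein phosphorylated by the S6 kinases downstream of mTOR. Its probe set had signals of 371 and 1238 in bulge basal cells, against 594 and 903 in total epidermis, a log2 difference of -0.11 ± 0.68 (SE). Rpsa, also known as a laminin receptor precursor, had 5775 and 21083 in bulge basal cells, against 8220 and 13006 in total epidermis, a difference of 0.09 ± 0.71. In both genes bulge replicate 1 was the lowest and bulge replicate 2 the highest array. The Rps6 probe set is dim for this class. In the brightest that carries the Rps6 symbol beside that of a pseudogene, given below, the bulge arrays lay between the total arrays. Of the listed proteins of the small subunit head, 9 of 14 were measured, with a median difference of -0.10 and 0 called. Over the whole subunits the median difference was -0.06 for the 26 large subunit genes and -0.10 for the 22 small subunit genes.

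The paralogues known from particular tissues were low. Rpl39l, a copy of Rpl39 known for its expression in testis, had signals of 32.7 and 25.8 in bulge basal cells, against 29.7 and 1.92 in total epidermis. Rpl3l, known from striated muscle, had 5.07 and 9.98 in bulge basal cells, against 8.41 and 4.54 in total epidermis. Rps4l had 1.45 and 10.5 in bulge basal cells, against 1.75 and 7.56 in total epidermis. All 3 were below background in every sample, so no fold is given. Their parent genes Rps4x and Rpl39 were above it, Rpl39 with 288 and 397 in bulge basal cells, against 296 and 315 in total epidermis. A brighter probe set carries the Rpl39 symbol beside that of a predicted (Gm) gene. Its log2 signals were 14.10 and 14.08 in bulge basal cells, against 13.89 and 14.53 in total epidermis. Rpl7l1, a homologue of Rpl7, had 898 and 1674 in bulge basal cells, against 823 and 1203 in total epidermis, a difference of 0.30 ± 0.49, and its groups overlapped. Rpl7 itself had 13015 and 18171 in bulge basal cells, against 12989 and 19664 in total epidermis, a difference of -0.06 ± 0.44.

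The second comparison set replicate 2 against replicate 1 within each group. These genes were higher on the replicate 2 array almost throughout. With 1 array on each side no test can be made, and the values describe these arrays. In bulge basal cells the log2 difference, replicate 2 minus replicate 1, had a median of 1.0 over the 48 genes (quartiles 0.54 and 1.49), with 46 positive and 24 over 1. In total epidermis its median was 0.61 (quartiles 0.43 and 0.73), with 44 positive and 3 over 1. Over all genes the medians were -0.05 in bulge basal cells and -0.14 in total epidermis. Of all 12393 genes, 5893 were positive and 1718 over 1 in bulge basal cells, and 5007 were positive and 660 over 1 in total epidermis.

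Replicate 2 was higher in both groups for 44 of the 48 genes, against 26.5% of all genes. Of the 45 genes above background it was higher in both for 43, and the 2 exceptions were Rpl12 and Rps27. For 29 of the 48 genes bulge replicate 1 was the lowest and bulge replicate 2 the highest of the 4 arrays, against 10.5% of all genes. Taking the arrays with the same number, bulge replicate 1 minus total replicate 1 had a median of -0.25 and was negative for 43 of the 48. Bulge replicate 2 minus total replicate 2 had a median of 0.12 and was positive for 34. Over all 12393 genes these medians were -0.08 for replicate 1, with 6893 negative, and 0.06 for replicate 2, with 6581 positive. The sign of the median therefore differed between the replicate numbers, in these genes and over all genes, although nothing in the labels pairs them.

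**Figure D3:**
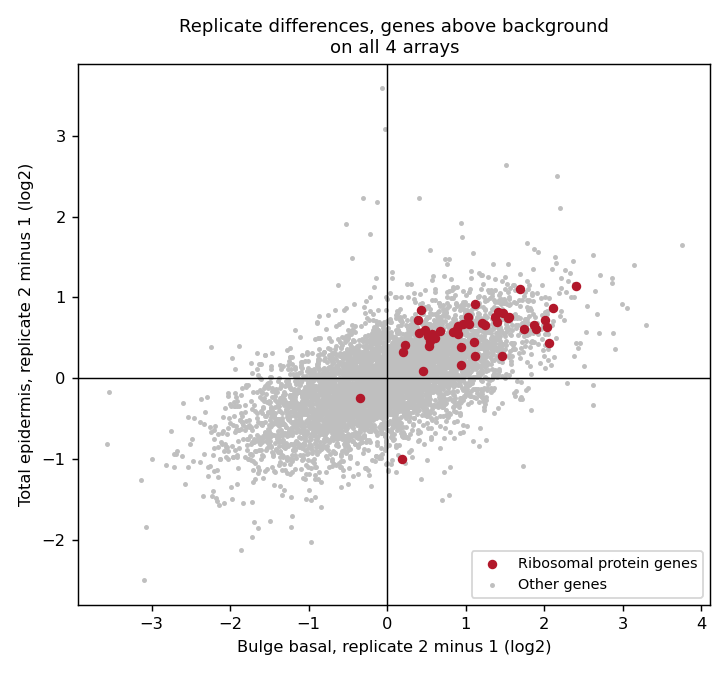
Replicate 2 minus replicate 1 in log2 signal, in bulge basal cells (x axis) and in total epidermis (y axis), for genes above background on all 4 arrays, with 1 point per gene. Red points are ribosomal protein genes and grey points the other genes. Of the 45 red points 43 lie above 0 on both axes, and the points outside it are Rpl12 and Rps27.

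The span of the replicate difference was wide within the class. Averaged over the groups, Rps15 had the largest among genes above background, 2.41 in bulge basal cells and 1.15 in total epidermis. Rpl41 followed with 2.11 in bulge basal cells and 0.87 in total epidermis, and Rps14, lost in the human 5q deletion syndrome, with 1.69 in bulge basal cells and 1.10 in total epidermis. The signals of Rps14 were 5855 and 18921 in bulge basal cells, against 6406 and 13776 in total epidermis. At the other end Rps7 differed by 0.20 in bulge basal cells and 0.33 in total epidermis. Rps4x differed by 0.23 in bulge basal cells and 0.42 in total epidermis, and Rpl39 by 0.46 in bulge basal cells and 0.09 in total epidermis. The brighter probe set that Rpl39 shares with a predicted (Gm) gene differed by -0.02 in bulge basal cells and 0.64 in total epidermis. Rpl12 ran the other way in both groups, with -0.35 in bulge basal cells and -0.24 in total epidermis, and Rps27 had 0.19 in bulge basal cells and -0.99 in total epidermis.

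The 2 subunits had like values. The median replicate difference was 1.08 in bulge basal cells and 0.60 in total epidermis for the 26 large subunit genes, and 0.94 in bulge basal cells and 0.63 in total epidermis for the 22 small subunit genes. The dimmer 23 of the 45 genes above background, with mean log2 signals of 8.07 to 13.46, had a median difference of 1.47 in bulge basal cells and 0.64 in total epidermis. The brighter 22, at 13.51 to 14.45, had 0.76 in bulge basal cells and 0.59 in total epidermis. The highest log2 signals of any probe set were 15.26 and 15.11 on the bulge arrays and 14.83 and 15.32 on the total arrays. Across the 45 genes the replicate differences of the 2 groups had a Pearson r of 0.55 and a Spearman rho of 0.53. The same r over all genes above background on all arrays was 0.63. The points are genes read on the same arrays and are not independent replicates.

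Several measures of the arrays differed between the replicates as well. The log2 ratio of the 3′ over the 5′ control probe set of Gapdh was 3.98 and 3.37 on the bulge arrays and 3.61 and 4.09 on the total arrays. The same ratio for actin was 2.50 and 3.45 on the bulge arrays and 2.36 and 2.99 on the total arrays, higher on replicate 2 in both groups. The 5′ probe set for 18S rRNA had signals of 159 and 1330 on the bulge arrays and 153 and 199 on the total arrays. The middle 18S probe set had 664 and 1396 on the bulge arrays and 378 and 533 on the total arrays. The 3′ one had 492 and 380 on the bulge arrays and 454 and 454 on the total arrays. The summed signal of 5 suprabasal keratinocyte markers was 21028 and 52414 on the bulge arrays and 35093 and 53735 on the total arrays, and the 4 of them above background were higher on replicate 2 in both groups. The part of these measures in the replicate differences was not tested.

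The hybridisation controls, 9 probe sets for bacterial and phage transcripts, were lower on replicate 2 in the bulge group and higher in the total group. Their median log2 difference, replicate 2 minus replicate 1, was -0.13 on the bulge arrays and 0.48 on the total arrays. After quantile normalization the ribosomal protein genes had median replicate differences of 0.85 in bulge basal cells and 0.22 in total epidermis. Replicate 2 was then higher in both groups for 35 of the 48 genes, and for 4017 of all 12393.

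The replicate difference was also seen across probe sets of the same gene. Of the 84 probe sets with a mean above background, 78 were higher on replicate 2 in bulge basal cells and 78 in total epidermis. Of the 16 below background, 6 were higher in bulge basal cells and 5 in total epidermis. The 5 probe sets of Rpl35, a protein at the exit tunnel, with a mean above background differed by 1.47 to 2.38 in bulge basal cells. Another Rpl35 probe set, with a mean below background, differed by -0.51 there. The 3 of Rps28, a small subunit head protein, differed by 0.20 to 0.43 in bulge basal cells.

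Other genes had probe sets that disagreed. The 6 probe sets of Rps10, another head protein, ran in bulge basal cells from -1.24 to 4.62, and the 4 of Rpl41 from -1.73 to 2.11. The Rps10 probe set at -1.24 had a mean above background but was below it on both replicate 2 arrays. In the comparison of bulge basal cells with total epidermis, 4 genes had probe sets that differed in sign and by over 0.5. These were Rpl22 with -0.70 and 0.09, Rpl37a with -1.43 to 0.18, Rps10 with -0.22 to 0.29, and Rps7 with -0.13 and 0.52. Each value is the log2 difference of a probe set of the gene, and the first for Rpl22 and Rps7 is the brighter probe set's. The value of -1.43 for Rpl37a came from a probe set below background on both bulge arrays. The probe set that represents Rpl37a had signals of 11189 and 22790 in bulge basal cells, against 11703 and 19788 in total epidermis. That of Rps10 had 7805 and 16980 in bulge basal cells, against 8557 and 16231 in total epidermis. In both the bulge arrays were the lowest and the highest.

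**Figure D4:**
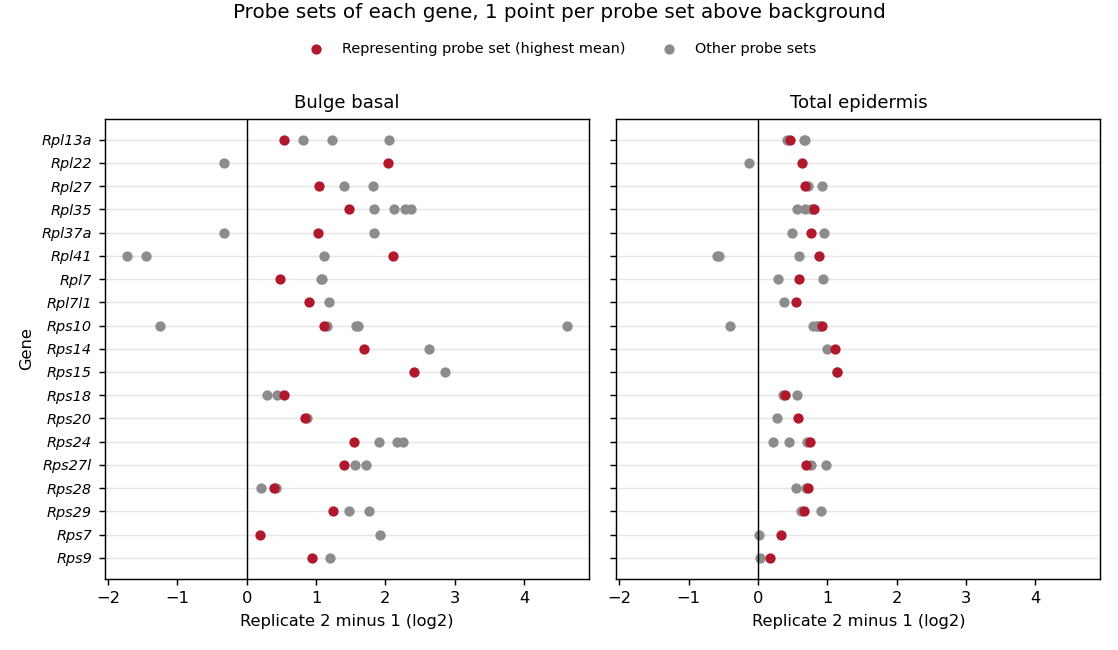
Replicate 2 minus replicate 1 in log2 signal (x axis) for each probe set with a mean above background. Rows are the 19 genes with several such probe sets, with bulge basal on the left and total epidermis on the right. Red points are the probe sets that represent the gene and grey points the others. Most points lie right of 0, and Rpl41 and Rps10 hold the lowest in bulge basal cells.

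The 2 exceptions, Rpl12 and Rps27, are genes whose probe sets are partly shared. A probe set with Rps27 and another symbol had log2 signals of 12.23 and 14.09 in bulge basal cells, against 12.42 and 13.41 in total epidermis, so replicate 2 was higher in both groups. The shared probe sets of Rpl12 had replicate differences of 1.57 and 1.54 in bulge basal cells, and 0.80 and 1.07 in total epidermis. For 14 of the 48 genes such shared probe sets exist. Those of Rps6 number 9, and the brightest had log2 signals of 14.82 and 14.67 in bulge basal cells, against 14.42 and 14.99 in total epidermis. There the bulge arrays lay between the total arrays, and replicate 2 was higher in total epidermis alone. The signals of a gene and of its copies cannot be told apart in these probe sets.

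Neighbouring gene lists were described with the same measures, and the group-only limma fit called 0 genes in each. Fau, which encodes a small subunit protein fused to a ubiquitin-like domain and was the only 1 of 4 ribosome genes with other symbols measured, had signals of 3519 and 9295 in bulge basal cells, against 4434 and 8085 in total epidermis. Its bulge arrays were the lowest and highest, as in most of the class. The 74 mitochondrial ribosomal protein genes had a median log2 difference between the groups of 0.03. Their median replicate difference was 0.99 in bulge basal cells and 0.31 in total epidermis, positive for 71 of 74 in bulge basal cells and 60 of 74 in total epidermis, and 43 had bulge replicate 1 lowest and bulge replicate 2 highest. Mrps14, a protein of the small mitochondrial subunit, had signals of 2076 and 4868 in bulge basal cells, against 2509 and 3813 in total epidermis. Mrpl27, of the large one, had 2413 and 3486 in bulge basal cells, against 2095 and 3539 in total epidermis.

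Translation factors, many of whose mRNAs also carry TOP starts, had smaller median replicate differences than the ribosomal protein genes. Of 30 listed, 25 were measured, with a median difference between the groups of -0.17. Their median replicate difference was 0.37 in bulge basal cells and 0.30 in total epidermis, positive for 18 of 25 in bulge basal cells and 20 of 25 in total epidermis. For 10 of the 25, bulge replicate 1 was lowest and bulge replicate 2 highest, against 10.5% of all genes. The brightest were Tpt1, a growth-related TOP mRNA, and Eef1a1, which brings aminoacyl-tRNA to the ribosome. Tpt1 had signals of 27608 and 27217 in bulge basal cells, against 20962 and 30969 in total epidermis. Eef1a1 had 25124 and 24621 in bulge basal cells, against 21739 and 28368 in total epidermis. In both genes the bulge arrays were close together and lay between the total arrays.

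Ribosome biogenesis genes, which make and process rRNA and assemble the subunits, had 32 of 35 measured. Their median difference between the groups was -0.54, against -0.02 over all genes. Both bulge arrays lay below both total arrays for 15 of the 32 and above both for 0, where the shares of all genes were 20.5% and 18%. An unadjusted p under 0.05 was reached by 1 of the 32, against 10.5% of all genes. The summed leukocyte and melanocyte marker signals and Krt1 were also lower in bulge basal cells, and their part in this was not tested. Npm1, a nucleolar chaperone, had signals of 7342 and 6539 in bulge basal cells, against 8791 and 8558 in total epidermis, a log2 difference of -0.32 ± 0.37 (SE, limma adjusted p = 0.90). Nop10, a component of the particles that guide rRNA pseudouridylation, had 4746 and 7457 in bulge basal cells, against 4969 and 6393 in total epidermis. Npm1 thus separated the groups and Nop10 did not.

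Of 21 listed regulators of the Myc and mTOR pathways, 18 were measured, with a median difference between the groups of -0.12. Both bulge arrays were higher for 3 and lower for 5 of the 18, against 18% and 20.5% of all genes. Bulge replicate 1 was lowest and bulge replicate 2 highest for 0 of the 18, against 10.5% of all genes. Rheb, the GTPase that activates mTOR complex 1, had signals of 4062 and 5077 in bulge basal cells, against 5558 and 5201 in total epidermis. Larp1, which binds TOP mRNAs, had 2083 and 997 in bulge basal cells, against 3395 and 2139 in total epidermis, a log2 difference of -0.90 ± 0.53 (SE, limma adjusted p = 0.70). Larp1 was lower on replicate 2 in both groups.

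**Figure D5:**
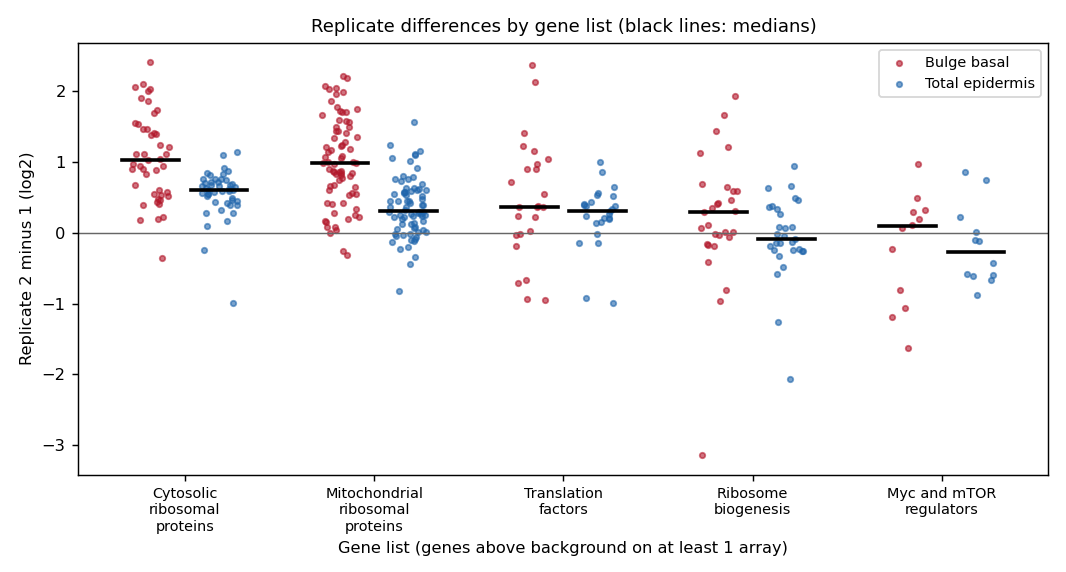
Replicate 2 minus replicate 1 in log2 signal (y axis) for genes above background on at least 1 array, by gene list (x axis), in bulge basal cells (red) and total epidermis (blue). Points are genes and black lines medians. For the cytosolic ribosomal proteins the medians are 1.03 in bulge basal cells and 0.61 in total epidermis, and for the mitochondrial ones 0.99 in bulge basal cells and 0.31 in total epidermis.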

How the data were processed

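RNA from 4 sorted cell samples was measured on Affymetrix arrays. The input was 200 ng of RNA, amplified from an oligo-dT T7 primer and labelled with biotin after random priming, per the labels' protocols. The deposited table holds linear signal intensity per probe set, as the authors summarised it, and which tool made it is not given in the sources used here: RMA, affy 1.36, R 2.15.1 and GCOS are all listed in the submitters' processing notes. The common trimmed mean of the arrays is a property of the values themselves. The file has no detection calls.

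Probe sets were named from the platform annotation. Of 22690, 64 were controls, 20380 had 1 symbol, 691 several and 1555 none; controls and those with several or none were left out of the tests. A gene took its probe set with the highest mean. Log2 signals were fitted with limma 3.58.1 (R 4.3.3) on group, two-sided, with Benjamini-Hochberg adjustment over 12393 genes. Alternatives (13) changed centring, normalization, a constant of 32 added to the signal, the variance model, the filter, the probe set rule, a replicate block, and left out each array. The fit was run on simulated data with independent errors for each gene and array. Those data held no replicate difference shared across genes, so the run does not bear on such a difference. Values on all arrays are given for the genes with the highest and lowest differences, levels and replicate differences, paralogues, named roles and disagreeing probe sets. The genes, lists and motifs were chosen with earlier results of these data known. The number of arrays limits the precision.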

Additional observations from a re-analysis of the deposited data

Results flagged for a closer look

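Outside the tested genes, 102 probe sets carry a cytosolic ribosomal protein symbol together with at least 1 other symbol, among them predicted (Gm) genes and pseudogenes. They are looked at here because 90 of them had signals above background on all 4 arrays while the gene tests leave them out. They name 44 ribosomal protein genes, of which 30 are not among the 48 genes above. Over the 90, the median log2 difference was -0.04 (range -0.57 to 0.55), bulge basal minus total epidermis. Replicate 2 minus replicate 1 had a median of 1.18 in bulge basal cells, with 82 positive, and of 0.62 in total epidermis, with 85 positive. Rpl5, the partner of Rpl11, had log2 signals of 14.39 and 14.66 in bulge basal cells, against 14.35 and 14.77 in total epidermis, in its brightest such probe set. Rplp1, the stalk gene not measured alone, had 12.93 and 14.42 in bulge basal cells, against 13.61 and 14.23 in total epidermis. These probe sets may read copies as well as the gene, and no test was made on them.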

How the results depend on the processing

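All 13 alternatives called 0 of the 48 ribosomal protein genes and 0 in each related list, with a smallest adjusted p of 0.168 among the 48 over them. Over all genes limma called 37 with log2(signal + 32), 134 with the trended variance and 142 with the filter on dim genes, and 0 otherwise. The replicate block called 0, with a smallest adjusted p of 0.42 among the 48, a median interval reach of 0.97 to either side, and 1823 of all genes at an unadjusted p under 0.05; with 2 pairs the numbers are not known to pair the samples. Non-overlapping genes, bulge basal higher, numbered 1 with quantile normalization and 1 to 32 with an array left out (32 without bulge replicate 1). Bulge basal lower numbered 5 with quantile normalization, 7 with the mean of probe sets and 10 of 100 with every probe set. With an array left out, bulge basal lower numbered 1 to 41 (41 without bulge replicate 2). There a lone array has only to lie outside the range of the 2 others, a looser condition than with 2 arrays against 2. The shares of all genes were not counted under these settings, so these counts do not set the ribosomal protein genes apart from other genes. The median difference over the 48 genes stayed between -0.10 and -0.07 except with an array left out, where it ran from -0.56 to 0.39; the cause was not tested. Of 286 values of 22 named genes above background, 36 changed sign, in 21 genes, all but Rpl12; none was called. The 3 genes below background have no such values. With the mean of probe sets, Rpl37a had -0.39, Rps10 0.0028, Rps7 0.19 and Rpsa -1.02. With an array left out the ranges were Rpl11 -0.74 to 1.16, Rpl12 -0.71 to -0.36, Rpl14 -1.78 to 0.28, Rpl22 -1.71 to 0.32, Rpl22l1 -1.35 to 0.19, Rpl37a -0.44 to 0.58, Rpl39 -0.084 to 0.38, Rpl41 -1.57 to 0.54, Rpl7 -0.35 to 0.24, Rpl7l1 -0.15 to 0.75, Rplp0 -1.17 to 0.29, Rplp2 -0.58 to 0.53, Rps10 -0.59 to 0.53, Rps14 -0.68 to 1.01, Rps15 -0.85 to 1.56, Rps27 -0.21 to 0.79, Rps27l -0.20 to 1.20, Rps3 -0.28 to 0.32, Rps4x -0.31 to 0.10, Rps6 -0.98 to 0.76, Rps7 -0.30 to 0.031, Rpsa -0.84 to 1.03. Median replicate differences ran from 0.85 to 1.08 in bulge basal cells and from 0.22 to 0.74 in total epidermis. Where an array is left out, its group's lone array is assumed to vary like the other group.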
